A study of Homo sapiens with 18 samples.

Results

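DDB2, XPC, POLH, RRM2B and GADD45A are genes of DNA repair and of the GADD45 family that are known as targets of the transcription factor p53. GADD45B and GADD45G are the other genes of the GADD45 family. All were chosen by symbol, as 7 of the 23368 genes in the deposited tables. Their RNA was followed in SJSA-1 cells (SJSA in the study), a human osteosarcoma cell line in which MDM2 and CDK4 are amplified. Nutlin blocks the binding of MDM2 to p53 and so stabilizes p53, and PD0332991 (Palbociclib) inhibits the kinases CDK4 and CDK6. The study asked how CDK4 inhibition changes the expression of p53-responsive genes.

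The 18 libraries fell into 6 groups of 3 replicates. DMSO was the solvent control, and Nutlin cells received 20 µM Nutlin for 6 h. PD24 cells were kept in 10 µM PD0332991 for 24 h and then without it for 6 h, 30 h in all. PD30 cells kept 10 µM PD0332991 for all 30 h. N+PD24 and N+PD30 cells received these schedules together with 20 µM Nutlin in the last 6 h. The Nutlin concentration is that of the sample labels, whereas the scheme of the study also writes a lower one. All groups were the same cell line, and the study calls its triplicates biological. The labels name neither clones nor separate cultures, so p-values measure only the spread between these samples.

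Total counts per library ranged from 12704845 in N+PD30 replicate 1 to 40231041, with a median of 29608936. Levels are counts scaled to a common library total (CPM), and the limits given for counts of 0 cover counting error only. Groups of 3 libraries that do not overlap are common here. Depending on the comparison, 40.1% to 61.8% of all genes tested did not overlap between its 2 groups. Of 9 osteoblast lineage markers, 6 were measured above the filter in Nutlin against DMSO, whereas BGLAP, IBSP and SP7 stayed under 1 CPM in every group. The summed level of 8 markers of other cell types lay between 2.79 and 18.3 CPM per library, and CD3E, EPCAM, KRT5 and PTPRC stayed under 1 CPM in every group. Of these 8, 4 were tested in Nutlin against DMSO and 3 were called as higher, beside 26.6% of all genes tested. The mean of VWF was 1.70 CPM in DMSO, 5.65 in Nutlin and 11.2 in N+PD24. From DMSO to Nutlin, PECAM1 went from 0.736 to 1.84 CPM and CDH1 from 0.415 to 1.21 CPM. The summed level of 8 proliferation markers was 2976 to 3241 CPM in DMSO, 1606 to 2258 CPM in Nutlin and 42.7 to 88.4 CPM in all libraries with PD0332991. The part of this shift in the changes given in the following was not tested. In bulk RNA, a lower level in fewer cells and a lower level per cell cannot be told apart.

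As background, DDB2 and XPC find damaged bases at the start of nucleotide excision repair, in which a stretch of the damaged strand is cut out and filled in again. POLH encodes DNA polymerase eta, which copies past ultraviolet lesions in translesion synthesis. RRM2B encodes p53R2, a small subunit of ribonucleotide reductase that pairs with RRM1 and supplies deoxynucleotides outside S phase, whereas RRM2 is the S phase subunit. The GADD45 proteins are small stress-inducible proteins that bind, among others, the kinase MAP3K4, the CDK1-cyclin B complex, PCNA and p21.

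p53 binds DNA as a tetramer, and its consensus of 20 bases, as used here, is a direct repeat of RRRCWWGYYY. Copies with other bases between them were not searched for. The direct repeat was searched for within 2500 bases on either side of the start of the canonical transcript of each gene on GRCh37. Positions are counted from this start, and at most 2 mismatches outside the fixed C and G bases were allowed. Matches were found for 4 of the genes, and 3 of them are shown to give their bases in the build of the files, with the 4 core bases of each copy in capitals.
DDB2, chr11:47236520-47236539, plus strand: aagCTGGtttgaaCAAGccc
GADD45A, chr1:68152458-68152477, plus strand: gaaCATGtctaagCATGctg
GADD45B, chr19:2478019-2478038, plus strand: agaCTTGgttgaaCTTGgtt

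The DDB2 match had 1 mismatch and lay across the start site, from base -5, at the noncoding edge of exon 1. In GADD45A the match had 1 mismatch and lay 1574 bases after the start, in intron 3. GADD45B held a match with 2 mismatches 1894 bases after the start, in the noncoding part of exon 4. RRM2B had a match with 1 mismatch in intron 1, 2102 bases after the start, whose sequence is not shown. No match lay in these windows of XPC, POLH and GADD45G, which says only that these letters are not there. Elements with bases between the copies, or with a changed fixed C or G, would not have been found. Of 19867 protein-coding gene windows of this size, 3.78% held a match, and 0.523% held a match with at most 1 mismatch.

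The RefSeq promoters (GRCh38.p14, 250 bases before to 50 after the start) of DDB2, XPC and POLH are shown because these repair genes were all lower with PD0332991 alone. Capitals mark the p53 consensus match in DDB2 and the E2F-type letters TTTCCCGC in XPC, which were searched on both strands together with TTTNGCGC. Other E2F-type letters, and copies of RRRCWWGYYY with bases between them, were not searched and are not marked, so promoters may hold such sequences. The DDB2 promoter has a further, unmarked copy of RRRCWWGYYY just after the marked match, with a t between them. The marked letters do not overlap in the promoters shown.
DDB2, chr11:47214724-47215023, plus strand: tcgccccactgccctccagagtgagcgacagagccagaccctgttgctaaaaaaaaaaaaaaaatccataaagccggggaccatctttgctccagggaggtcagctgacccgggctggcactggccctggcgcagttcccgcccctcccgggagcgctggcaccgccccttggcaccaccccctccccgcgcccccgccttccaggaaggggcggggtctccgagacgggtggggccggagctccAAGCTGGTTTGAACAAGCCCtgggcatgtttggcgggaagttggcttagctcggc
XPC, chr3:14178552-14178851, minus strand: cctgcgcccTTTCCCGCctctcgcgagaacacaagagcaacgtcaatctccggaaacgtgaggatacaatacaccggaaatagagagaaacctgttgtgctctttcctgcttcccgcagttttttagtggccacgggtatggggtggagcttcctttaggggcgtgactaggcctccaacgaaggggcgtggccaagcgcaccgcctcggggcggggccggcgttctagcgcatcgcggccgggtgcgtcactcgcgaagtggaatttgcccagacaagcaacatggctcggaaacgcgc
POLH, chr6:43575935-43576234, plus strand: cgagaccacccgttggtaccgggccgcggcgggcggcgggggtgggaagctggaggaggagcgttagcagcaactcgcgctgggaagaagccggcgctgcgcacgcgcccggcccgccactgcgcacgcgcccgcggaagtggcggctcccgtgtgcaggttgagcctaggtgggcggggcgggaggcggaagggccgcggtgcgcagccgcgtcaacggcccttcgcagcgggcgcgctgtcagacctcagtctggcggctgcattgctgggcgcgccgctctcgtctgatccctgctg

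A p53 consensus match was present in 0.285% of 35116 promoters of this length. TTTCCCGC was present in 1.63% of them and TTTNGCGC in 1.79%. The XPC match began at base -241, counted from the start, and the promoter of POLH held none of the 3 motifs. RefSeq lists a second DDB2 promoter at chr11:47214204-47214503, which held none either. Of the 7 genes, 5 matched the promoter table, and GADD45A and RRM2B were not used here.

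DDB2 lies on the plus strand of chromosome 11 (GRCh37, bases 47236016 to 47260768). Its level was high with Nutlin and low with PD0332991. DDB2 was at 32.7, 33.7 and 33.9 CPM in DMSO, and at 137, 142 and 145 CPM in Nutlin. In PD24 it was at 6.82, 6.32 and 7.51 CPM, and in PD30 at 14.1, 10.3 and 14.6 CPM. The combinations lay in between, at 47.8, 44.2 and 57.4 CPM in N+PD24 and at 71.9, 68.7 and 66.0 CPM in N+PD30. No library of any group overlapped with a library of another group. The order from low to high was PD24, PD30, DMSO, N+PD24, N+PD30 and Nutlin. All neighbours in this order that were tested differed by adjusted p except N+PD24 and N+PD30 (log2 fold change 0.35 ± 0.13 (SE), adjusted p = 0.0644), which were called when libraries were scaled by total counts (0.47, adjusted p = 0.0232). DMSO and N+PD24 were not tested against each other.

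XPC lies on the minus strand of chromosome 3 (bases 14186647 to 14220121). Its level was 65.2, 63.4 and 59.1 CPM in DMSO and 197, 175 and 179 CPM in Nutlin. PD24 libraries held 34.7, 42.6 and 49.7 CPM, and PD30 libraries held 54.5, 49.0 and 48.5 CPM. XPC was thus below DMSO in all libraries with PD0332991 alone, and both schedules overlapped. Of all genes tested, 50.1% did not overlap between PD24 and DMSO, and 57.3% between PD30 and DMSO. With Nutlin added, the levels were 146, 144 and 145 CPM in N+PD24 and 150, 143 and 133 CPM in N+PD30, which overlapped as well and lay under all 3 Nutlin libraries. Exon bases of XPC are shared on the opposite strand with XPC-AS1 (24.6%) and with ENSG00000268279 (8.91%). The authors counted with a setting for reverse-stranded reads, but whether the kit keeps the strand is not given in the sources used here, so reads of these genes may not be told apart.

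POLH lies on the plus strand of chromosome 6 (bases 43543922 to 43588260), and 3.12% of its exon bases are shared with GTPBP2 on the opposite strand. Its level was 55.9, 57.8 and 59.2 CPM in DMSO and 193, 140 and 158 CPM in Nutlin. With PD0332991 alone it was low and overlapped between both schedules, at 19.5, 16.7 and 19.2 CPM in PD24 and 20.0, 18.1 and 18.5 CPM in PD30. Adding Nutlin brought it to 140, 120 and 130 CPM in N+PD24 and to 101, 107 and 114 CPM in N+PD30. N+PD24 overlapped with the Nutlin libraries, whereas N+PD30 lay under both.

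RRM2B lies on the minus strand of chromosome 8 (bases 103216730 to 103251189) and shares no exon bases with another annotated gene. Its level was 68.4, 71.0 and 71.9 CPM in DMSO and 325, 283 and 263 CPM in Nutlin. It stood at 57.3, 49.6 and 57.8 CPM in PD24 and at 74.2, 69.7 and 86.8 CPM in PD30. Unlike for DDB2 and POLH, the PD30 libraries overlapped with DMSO. N+PD24 libraries held 192, 176 and 214 CPM. N+PD30 libraries were spread widely, at 126, 198 and 230 CPM, and the lowest of them, replicate 1, was also the library with the lowest total count. All 6 combination libraries lay between the DMSO and the Nutlin libraries.

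GADD45A lies on the plus strand of chromosome 1 (bases 68150884 to 68154017). In contrast to the repair genes, it was above DMSO in every other group. GADD45A was at 33.5, 28.9 and 38.2 CPM in DMSO, at 58.0, 52.7 and 54.4 CPM in Nutlin, at 60.1, 61.5 and 48.3 CPM in PD24 and at 45.6, 44.2 and 69.5 CPM in PD30. Nutlin, PD24 and PD30 overlapped with each other. The levels were 84.6, 64.6 and 70.9 CPM in N+PD24 and 122, 111 and 146 CPM in N+PD30, so that the highest libraries of all were those with Nutlin and continuous PD0332991.

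GADD45B lies on the plus strand of chromosome 19 (bases 2476120 to 2478257). Its DMSO libraries held 109, 71.4 and 61.2 CPM and overlapped with the Nutlin libraries, at 54.2, 73.0 and 81.5 CPM. The other groups were at 103, 117 and 77.1 CPM in PD24, 86.7, 92.5 and 85.8 CPM in PD30, 59.9, 70.4 and 71.4 CPM in N+PD24, and 133, 104 and 98.6 CPM in N+PD30. DMSO replicate 1 was the highest of its group. GADD45G, on the plus strand of chromosome 9 (bases 92219927 to 92221470), had no read in 13 libraries and 1 read in 5, none of them DMSO. A count of 0 allows up to 0.0746 to 0.236 CPM, depending on the library, and GADD45G was in no test.

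**Figure D1:**
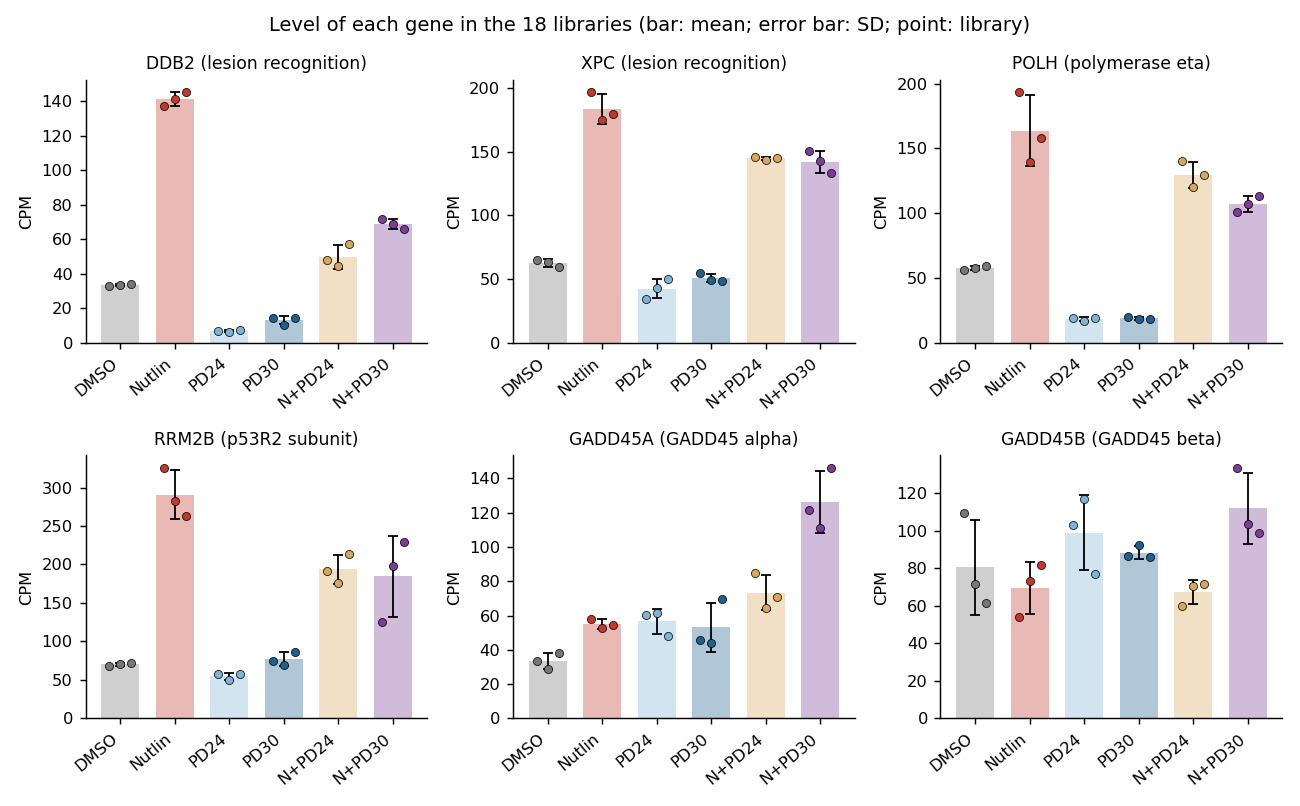
CPM of 6 genes (y axis, a scale for each gene) in the 6 groups (x axis). Bars are means of 3 libraries, error bars are SD and points are libraries. DDB2, XPC, POLH and RRM2B have their highest mean in Nutlin (141, 183, 164 and 291 CPM), whereas GADD45A and GADD45B have it in N+PD30 (126 and 112 CPM).

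Between genes, levels were compared only per length, as the mean CPM per kilobase of the annotated canonical transcript. In DMSO, GADD45B was highest with 58.8 ± 18.4 (SD, n = 3) CPM per kilobase, followed by GADD45A with 24.8 ± 3.42, DDB2 with 18.4 ± 0.375, XPC with 17.1 ± 0.852, RRM2B with 14.7 ± 0.383 and POLH with 6.89 ± 0.197. In Nutlin, DDB2 led with 77.9 ± 2.18 CPM per kilobase, ahead of RRM2B with 60.9 ± 6.64. In N+PD30 the GADD45 genes were on top again, with GADD45A at 93.3 ± 13.2 and GADD45B at 81.5 ± 13.7 CPM per kilobase, which overlapped within their SD. POLH was lowest of the 6 in all 3 groups. These values depend on the transcript chosen for each gene.

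Nutlin raised DDB2, XPC, POLH, RRM2B and GADD45A, and GADD45B did not pass the test. DDB2 rose 4.23-fold from 33.4 ± 0.681 to 141 ± 3.96 CPM (SD, n = 3; log2 fold change 2.21 ± 0.09 (SE), adjusted p = 2.33e-07). RRM2B rose 4.13-fold from 70.4 ± 1.83 to 291 ± 31.7 CPM (2.17 ± 0.11, adjusted p = 7.79e-07). They are a lesion recognition gene and a gene of deoxynucleotide supply. XPC rose 2.93-fold (1.68 ± 0.09, adjusted p = 1.34e-06) and POLH rose 2.84-fold (1.63 ± 0.12, adjusted p = 5.86e-06). GADD45A rose 1.64-fold (0.84 ± 0.12, adjusted p = 0.000201). The log2 fold change of GADD45B was -0.09 ± 0.21 (adjusted p = 0.735), and it became 0.19 without DMSO replicate 1 and 0.05 without Nutlin replicate 1, neither past the threshold.

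Thus 5 of the 6 genes tested rose. Among all 15766 genes tested, 54.6% were called at an adjusted p under 0.05, with 26.6% higher and 28.0% lower. Of the called genes 51.3% were lower, or 63.3% with scaling by total counts. The median log2 fold change was 1.66 over the 6 genes and 0.03 over all genes tested, and scaling by total counts moved the latter to -0.10 without changing a call among the 6 genes. For reference, CDKN1A (p21) rose with a log2 fold change of 4.56 ± 0.16 and MDM2 with 3.27 ± 0.15.

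PD0332991 without Nutlin lowered DDB2, XPC and POLH in both schedules. POLH fell to 32.7% of its DMSO mean in PD30 (log2 fold change -1.63 ± 0.09, adjusted p = 5.24e-07) and to 32.0% in PD24 (-1.62 ± 0.10, adjusted p = 4.01e-06). DDB2 fell to 38.9% in PD30 (-1.38 ± 0.13, adjusted p = 3.08e-05) and to 20.6% in PD24 (-2.26 ± 0.12, adjusted p = 9.38e-07). XPC fell to 81.0% in PD30 (-0.32 ± 0.09, adjusted p = 0.0131) and to 67.7% in PD24 (-0.54 ± 0.13, adjusted p = 0.0119). XPC missed the threshold in PD30 without DMSO replicate 2 (adjusted p = 0.0592).

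RRM2B and the GADD45 genes took other courses. RRM2B had a log2 fold change of 0.11 ± 0.09 in PD30 (adjusted p = 0.351). In PD24 it fell by 0.34 ± 0.09 (adjusted p = 0.0204), which was lost without DMSO replicate 2 (adjusted p = 0.0901) or 3 (adjusted p = 0.065). GADD45A rose by 0.65 ± 0.18 in PD30 (adjusted p = 0.0127) and by 0.78 ± 0.15 in PD24 (adjusted p = 0.00295), the former not without DMSO replicate 2 (adjusted p = 0.0557). GADD45B was not called in PD30 (0.12 ± 0.18, adjusted p = 0.631) or PD24 (0.32 ± 0.23, adjusted p = 0.293). Leaving out DMSO replicate 1 gave a call as higher for GADD45B, at 0.40 in PD30 (adjusted p = 0.0153) and at 0.60 in PD24 (adjusted p = 0.0473), and leaving out DMSO replicate 3 gave -0.05 in PD30.

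In PD30 against DMSO, 4 of the 6 genes were called (1 higher, 3 lower) beside 48.3% of all genes tested (22.9% higher, 25.4% lower). In PD24 against DMSO 5 were called (1 higher, 4 lower), beside 38.3% (17.5% higher, 20.8% lower). Without DMSO replicate 2, 2 of the genes were called in PD30. Over the 6 genes, the log2 fold change had a median of -0.11 in PD30 and -0.44 in PD24, and over all genes tested it had one of 0.00 and 0.02. Both comparisons share the DMSO libraries.

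The schedules themselves differed for DDB2 and RRM2B. DDB2 was higher in PD30 than in PD24 (log2 fold change 0.88 ± 0.16, adjusted p = 0.00501), and so was RRM2B (0.45 ± 0.11, adjusted p = 0.0177). The call for RRM2B was lost without PD30 replicate 1 (adjusted p = 0.0546) or 3 (adjusted p = 0.0621). POLH showed -0.00 ± 0.12, XPC 0.22 ± 0.14, GADD45A -0.13 ± 0.18 and GADD45B -0.20 ± 0.16, none called. Leaving out PD24 replicate 3 brought GADD45B to -0.37 (adjusted p = 0.0453). Of all genes tested, 25.2% were called (12.2% higher, 12.9% lower), and 2 of the 6 genes. With the replicate number as a block, the calls over all genes went from 3816 to 6107 and those among the 6 genes stayed at 2.

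**Figure D2:**
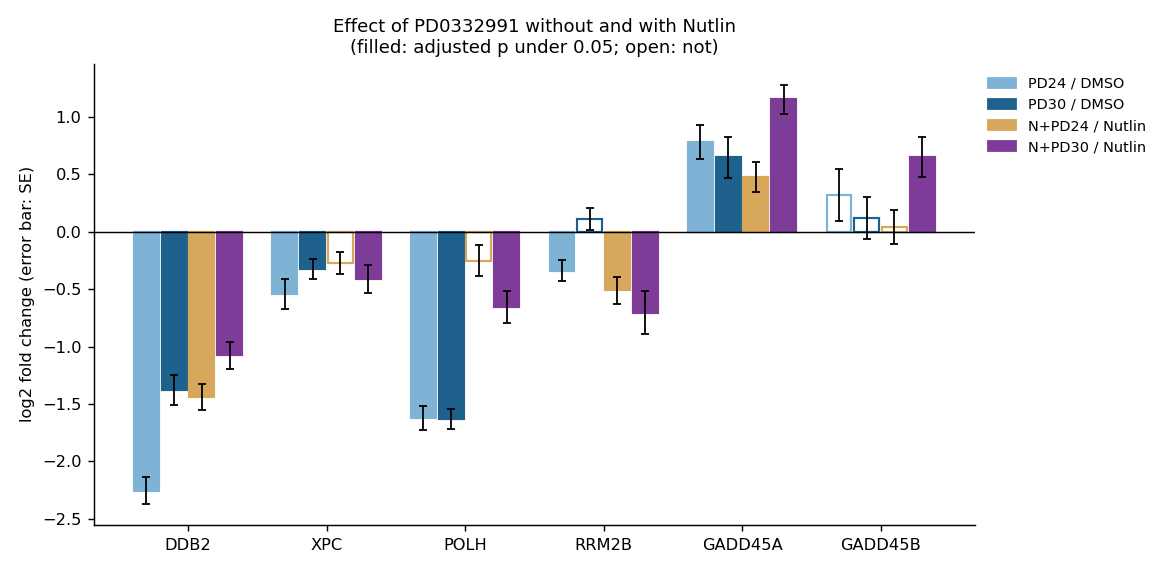
log2 fold change (y axis) of 6 genes (x axis) for PD24 and PD30 against DMSO and for N+PD24 and N+PD30 against Nutlin. Error bars are SE, and filled bars have an adjusted p under 0.05. DDB2 is below 0 in all 4 comparisons (-2.26, -1.38, -1.44 and -1.08), whereas GADD45A is above 0 in all 4 (0.78, 0.65, 0.48 and 1.16).

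Next, cells with Nutlin and continuous PD0332991 were compared with cells with Nutlin alone, as the study also did. This difference includes any effect that PD0332991 has without Nutlin. Whether the response to Nutlin itself differed is given further below. The 4 repair genes were lower and both GADD45 genes were higher. DDB2 was at 48.7% of its Nutlin mean (log2 fold change -1.08 ± 0.12, adjusted p = 3.68e-05). RRM2B was at 63.5% (-0.70 ± 0.19, adjusted p = 0.00957), POLH at 65.4% (-0.65 ± 0.14, adjusted p = 0.00257) and XPC at 77.4% (-0.41 ± 0.12, adjusted p = 0.0175). Without N+PD30 replicate 1, the library with the lowest RRM2B level and the lowest total count, RRM2B was at -0.50 and remained called. The XPC call was lost without Nutlin replicate 1 (adjusted p = 0.0603), N+PD30 replicate 2 (adjusted p = 0.0687) or N+PD30 replicate 3 (adjusted p = 0.0525).

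GADD45A was at 229% of its Nutlin mean (1.16 ± 0.13, adjusted p = 4.36e-05) and GADD45B at 161% (0.65 ± 0.18, adjusted p = 0.0106). For both, all 3 N+PD30 libraries were above all 3 Nutlin libraries, while 57.5% of all genes tested did not overlap between these groups. All 6 genes tested were called, 2 higher and 4 lower, beside 49.0% of all genes tested (24.3% higher, 24.7% lower). Their median log2 fold change was -0.53, beside 0.00 over all genes tested. CDKN1A fell by 0.78 ± 0.14 and MDM2 by 1.70 ± 0.17 on the log2 scale in the same comparison, so GADD45A and GADD45B went the other way than these p53 targets.

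When PD0332991 was removed before Nutlin was added, 3 of the 6 genes differed from Nutlin alone. DDB2 was at 35.2% of the Nutlin mean (-1.44 ± 0.11, adjusted p = 1.46e-05). RRM2B stood at 66.7% (-0.51 ± 0.12, adjusted p = 0.00888) and GADD45A at 133% (0.48 ± 0.13, adjusted p = 0.0189). The GADD45A call was lost without Nutlin replicate 2 (adjusted p = 0.0797), Nutlin replicate 3 (adjusted p = 0.0582) or N+PD24 replicate 1 (adjusted p = 0.0517). XPC was at 78.9% (-0.27 ± 0.10, adjusted p = 0.0564), POLH at 79.2% (-0.25 ± 0.13, adjusted p = 0.175) and GADD45B at 96.7% (0.04 ± 0.15, adjusted p = 0.862), none past the threshold.

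Same-numbered libraries of N+PD24 and Nutlin deviated together from their group means (r = 0.417 to 0.650), although the labels do not say what a number shares. With the replicate number as a block, XPC (adjusted p = 0.00616) and POLH (adjusted p = 0.0105) were called as lower too, so that 5 instead of 3 of the 6 genes were called, and the calls over all genes went from 5364 to 8268. The share of all genes called without the block was 35.1%, with 17.5% higher and 17.6% lower. With the block, 4193 of the 15262 genes tested were called as higher and 4075 as lower, so its share was larger too. XPC was also called with scaling by total counts (-0.34, adjusted p = 0.016). Both comparisons with Nutlin alone share the Nutlin libraries.

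The direct comparison of the combinations gave a lower POLH in N+PD30 than in N+PD24 (-0.40 ± 0.11, adjusted p = 0.0245) and a higher GADD45A (0.66 ± 0.15, adjusted p = 0.00846) and GADD45B (0.60 ± 0.15, adjusted p = 0.0153). XPC (-0.15 ± 0.11, adjusted p = 0.331) and RRM2B (-0.23 ± 0.19, adjusted p = 0.37) were not called. Of all genes tested 31.8% were called (15.7% higher, 16.2% lower), and 3 of the 6. Calls were lost for POLH with scaling by total counts (-0.28, adjusted p = 0.0928) and without N+PD24 replicate 1 (adjusted p = 0.056) or 2 (adjusted p = 0.0525) or N+PD30 replicate 1 (adjusted p = 0.0546) or 2 (adjusted p = 0.112). GADD45A lost its call without N+PD24 replicate 2 (adjusted p = 0.0519) and GADD45B without N+PD24 replicate 1 (adjusted p = 0.0534). RRM2B had a value of 0.01 without N+PD30 replicate 1.

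The response to Nutlin was then taken within each PD0332991 schedule. Under continuous PD0332991, Nutlin raised POLH 5.68-fold (log2 fold change 2.60 ± 0.09, adjusted p = 2.98e-06), DDB2 5.29-fold (2.50 ± 0.15, adjusted p = 4.03e-05) and XPC 2.80-fold (1.58 ± 0.10, adjusted p = 7.87e-05). RRM2B rose 2.40-fold (1.35 ± 0.19, adjusted p = 0.00435) and GADD45A 2.38-fold (1.34 ± 0.19, adjusted p = 0.00398). GADD45B reached 0.44 ± 0.14 (adjusted p = 0.073). It was called with the replicate number as a block (0.42, adjusted p = 0.0413), with DESeq2 (0.43, adjusted p = 0.0412) and without N+PD30 replicate 3 (0.55, adjusted p = 0.0208). Thus 5 of the 6 genes rose, beside 14.5% of all genes called, with 8.84% higher and 5.64% lower. Of the called genes 38.9% were lower, or 56.2% with scaling by total counts. The block brought the calls over all genes from 2183 to 4375.

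After removal of PD0332991, Nutlin raised DDB2 7.23-fold (2.98 ± 0.15, adjusted p = 2.01e-06), POLH 7.04-fold (2.96 ± 0.13, adjusted p = 1.69e-06), RRM2B 3.53-fold (1.97 ± 0.12, adjusted p = 4.06e-06) and XPC 3.42-fold (1.94 ± 0.14, adjusted p = 1.32e-05). GADD45A rose 1.30-fold (0.53 ± 0.15, adjusted p = 0.0214), which was lost with scaling by total counts (0.37, adjusted p = 0.0708) and without PD24 replicate 3 (adjusted p = 0.073) or N+PD24 replicate 1 (adjusted p = 0.0746). Between N+PD24 and PD24, 50.3% of all genes tested did not overlap. GADD45B was lower in all 3 N+PD24 libraries than in the PD24 libraries (-0.39 ± 0.16, adjusted p = 0.0794). Its fall was called with the replicate number as a block (adjusted p = 0.0143), with scaling by total counts (-0.54, adjusted p = 0.0267), without the filter on low values (-0.44, adjusted p = 0.0492) and without PD24 replicate 3 (-0.56, adjusted p = 0.0133). Of all genes tested, 36.7% were called, with 16.6% higher and 20.1% lower. Of the called genes 54.8% were lower, or 71.6% with scaling by total counts, which also moved the median of all genes from 0.03 to -0.12.

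**Figure D3:**
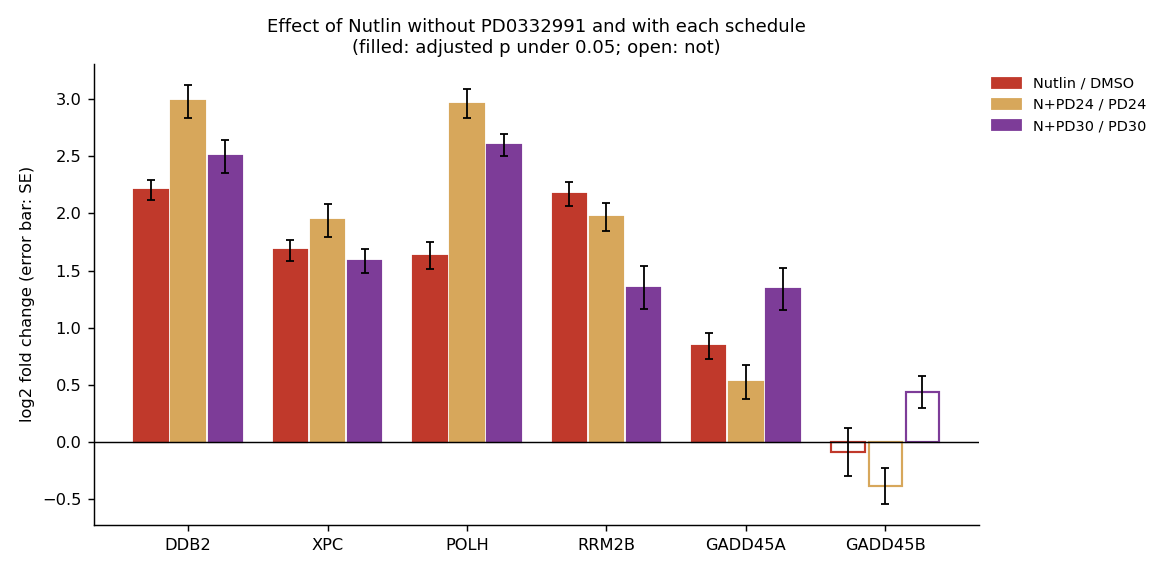
log2 fold change (y axis) of 6 genes (x axis) for Nutlin against DMSO, N+PD24 against PD24 and N+PD30 against PD30. Error bars are SE, and filled bars have an adjusted p under 0.05. POLH has the lowest value without PD0332991 (1.63, against 2.96 and 2.60), whereas RRM2B has the highest there (2.17, against 1.97 and 1.35).

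Whether the Nutlin response differed with PD0332991 was tested by an interaction term. With PD30, the response of POLH was larger (difference of log2 fold changes 1.02 ± 0.15, adjusted p = 0.000653) and that of RRM2B was smaller (-0.77 ± 0.23, adjusted p = 0.0319). The POLH term goes with a baseline that PD0332991 lowered from 57.6 to 18.9 CPM, while its level with both drugs stayed under that with Nutlin alone (107 against 164 CPM). The RRM2B baseline was 70.4 CPM in DMSO and 76.9 CPM in PD30. The RRM2B term missed the threshold without any 1 of the DMSO replicates, Nutlin replicate 1 or 2, or PD30 replicate 1 or 3, with adjusted p between 0.0516 and 0.0767. DDB2 (0.34 ± 0.16, adjusted p = 0.147), GADD45A (0.55 ± 0.23, adjusted p = 0.117) and GADD45B (0.58 ± 0.29, adjusted p = 0.178) were not called. GADD45A passed without PD30 replicate 3 (0.80, adjusted p = 0.00798). XPC was at -0.05 ± 0.13 (adjusted p = 0.851). Of all genes tested, 19.8% were called (12.8% higher, 7.03% lower), and 2 of the 6.

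With PD24, the response was larger for POLH (1.34 ± 0.17, adjusted p = 0.00252) and for DDB2 (0.78 ± 0.15, adjusted p = 0.0297), while 0.965% of all genes tested were called (0.575% higher, 0.390% lower). Both have the largest falls of the 6 genes in PD24 against DMSO, which is no separate observation, since the PD24 and DMSO levels enter the term. The DDB2 term was lost without any 1 of the DMSO or Nutlin replicates, PD24 replicate 1 or 2, or N+PD24 replicate 1, with adjusted p between 0.0525 and 0.0985. XPC (0.26 ± 0.17), RRM2B (-0.20 ± 0.15), GADD45A (-0.33 ± 0.20) and GADD45B (-0.33 ± 0.29) were not called. The terms with PD24 and with PD30 share the DMSO and Nutlin libraries.

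RRM2B and RRM2 are alternative small subunits of the same enzyme, so their ratio was taken within each library, where scaling cancels. RRM2 was at 552 ± 38.6 CPM in DMSO, 269 ± 20.9 in Nutlin, 4.65 ± 0.682 in PD24, 5.65 ± 1.60 in PD30, 4.28 ± 1.05 in N+PD24 and 3.74 ± 1.05 in N+PD30 (SD, n = 3). RRM2 is thus the member of the pair that nearly disappeared with PD0332991, and RRM1, the shared large subunit, went from 332 ± 19.8 CPM in DMSO to 25.0 ± 0.932 CPM in PD30. The ratio of RRM2B to RRM2 counts was 0.119, 0.140 and 0.125 in the DMSO libraries and 1.12, 1.14 and 0.987 in the Nutlin libraries. It was 10.6, 11.4 and 13.9 in PD24 and 10.1, 12.99 and 20.7 in PD30. With both drugs it was 41.4, 34.4 and 68.9 in N+PD24 and 35.6, 40.6 and 81.8 in N+PD30.

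The groups with and without Nutlin did not overlap in this ratio under any schedule. On the geometric mean, the ratio was 8.45-fold higher in Nutlin than in DMSO, 109-fold higher in PD30 than in DMSO, 45.5-fold higher in N+PD30 than in Nutlin, and 3.52-fold higher in N+PD30 than in PD30. Each of these comparisons, and those with PD24 and N+PD24, had p = 0.1 in a two-sided exact permutation test, which is the smallest p that 3 against 3 libraries can give. In total, 7 such comparisons were made. No p-value under 0.05 is possible, so none holds after adjustment. As the ratio is one of read counts, it does not account for transcript length.

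**Figure D4:**
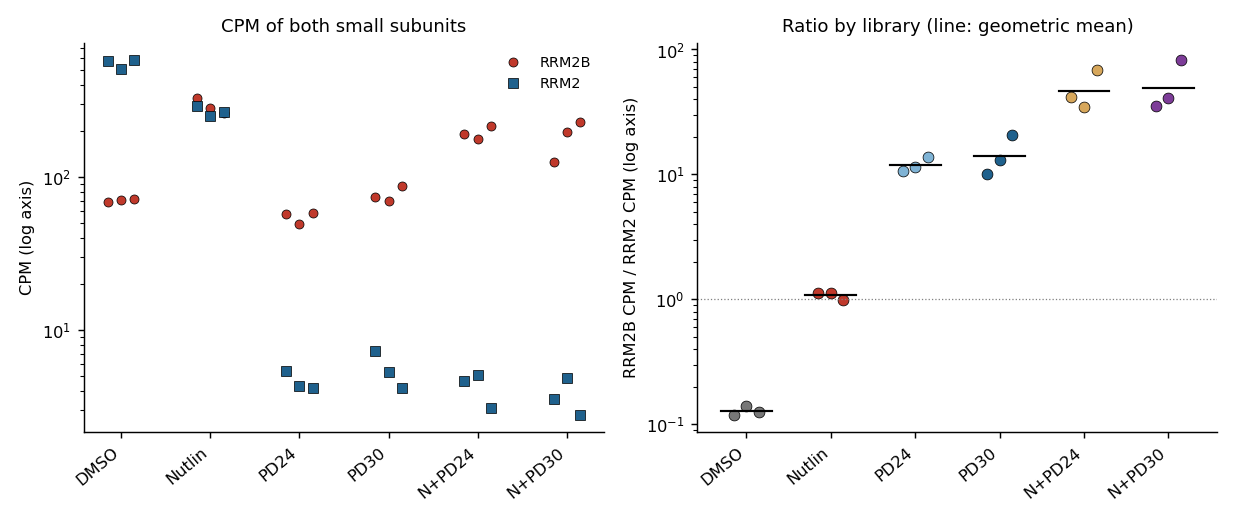
Left, CPM of RRM2B and RRM2 in each library (log axis). Right, their ratio in each library (log axis), with the geometric mean of each group as a line and a dotted line at 1. The ratio lies under 0.2 in DMSO, near 1 in Nutlin, and above 10 in all libraries with PD0332991.

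Most partners of these genes in the same pathways were not called as higher with Nutlin. Of 27 nucleotide excision repair genes other than DDB2 and XPC, 4 rose and 6 fell in Nutlin against DMSO, and their log2 fold change had a median of -0.10. Among those that rose without overlap between the groups were UVSSA (0.88 ± 0.15), a factor of transcription-coupled repair that the tables list as KIAA1530, and DDB1 (0.27 ± 0.08), the partner of DDB2. CETN2 (0.35 ± 0.12) and RBX1 (0.29 ± 0.11), named here after their values were seen, were called too, but their groups overlapped. RPA2 (-0.73 ± 0.09) and XPA (-0.58 ± 0.18), which bind the opened strand and the lesion, fell most. Of 15 translesion synthesis genes other than POLH, 1 rose and 10 fell, with a median of -0.50. REV3L (0.72 ± 0.10), the catalytic subunit of polymerase zeta, was the gene that rose. USP1 (-1.72 ± 0.12), which removes ubiquitin from PCNA, and RAD18 (-1.47 ± 0.12), which attaches it, fell most. Of 11 genes of deoxynucleotide supply, 1 rose (TYMS, 0.55 ± 0.09) and 3 fell, DCK (-1.08 ± 0.13) and RRM2 (-0.91 ± 0.09) the most, with a median of -0.04. The share of all genes called was 54.6%, and all of these lists lie under or near it except translesion synthesis with 11 of 15. Among 6 other repair genes reported as p53 targets, 1 rose and 2 fell, among them PMS2 (-0.49 ± 0.14).

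With PD30 against DMSO, where 48.3% of all genes were called, the fall of DDB2, XPC and POLH stood beside falls of genes that act with them. Of the 15 translesion synthesis genes 11 fell and POLI rose (0.56 ± 0.12), with USP1 (-3.45 ± 0.14) and the sliding clamp PCNA (-3.02 ± 0.10) at the lower end. Of the 11 deoxynucleotide supply genes 8 fell and TK2, the mitochondrial thymidine kinase, rose (0.36 ± 0.10). RRM2 (-6.64 ± 0.19) and TYMS (-5.13 ± 0.13) fell most, and the list median was -2.15. Nucleotide excision repair was balanced, with 6 genes higher and 6 lower and a median of 0.07. CETN2 (0.96 ± 0.08), which binds XPC, and ERCC2 (0.83 ± 0.13), a helicase of TFIIH, led the rises, and RPA3 (-1.70 ± 0.13) and RPA1 (-1.64 ± 0.07) the falls. All 8 proliferation markers fell, with a median of -5.53, and of the 6 other reported p53 targets in repair 4 fell, PCNA the most.

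In N+PD30 against Nutlin, the same lists counted 5 genes higher and 8 lower in nucleotide excision repair, 1 higher and 10 lower in translesion synthesis, and 2 higher and 7 lower in deoxynucleotide supply, beside 49.0% of all genes called. ERCC2 (1.26 ± 0.16) and the TFIIH kinase CDK7 (0.89 ± 0.12) rose, and RPA3 (-1.63 ± 0.16) and RPA1 (-1.58 ± 0.11) fell. POLI rose (0.92 ± 0.22), and USP1 (-2.80 ± 0.17) and PRIMPOL (-1.74 ± 0.22), listed in the tables as CCDC111, fell. RRM1 (-3.69 ± 0.13) fell together with RRM2 (-6.18 ± 0.22), whereas TK2 (0.50 ± 0.14) and DCTD (0.32 ± 0.12) rose. Of the other reported p53 targets in repair, PMS2 rose (0.44 ± 0.16) and 4 fell, PCNA (-1.62 ± 0.12) the most.

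Genes that are known as inputs to the GADD45 genes were called, in both directions together, about as often as all genes. Of all genes, 54.6%, 48.3% and 49.0% were called in the 3 comparisons that follow. By direction, 26.6%, 22.9% and 24.3% of all genes were higher, and 28.0%, 25.4% and 24.7% were lower. Of 13 stress and growth-factor genes, 1 rose (ATF3, 0.57 ± 0.14) and 6 fell in Nutlin against DMSO, where FOS (-2.20 ± 0.31) and EGR1 (-1.22 ± 0.30) fell most. In PD30 against DMSO, CEBPB (0.72 ± 0.15) and ATF4 (0.49 ± 0.14) rose and 4 fell, EGR1 (-2.27 ± 0.31) and FOS (-2.04 ± 0.24) the most. FOS and EGR1 had low levels throughout. The mean of FOS was 1.79 CPM in DMSO, 0.349 in Nutlin and 0.44 in PD30, and that of EGR1 was 1.99, 0.785 and 0.413 CPM. In N+PD30 against Nutlin, where both GADD45A and GADD45B rose, 7 of the 13 rose and 0 fell, with a median of 0.49. ATF4 (1.81 ± 0.15), a transcription factor of the integrated stress response, and CEBPB (1.24 ± 0.14) rose most. Whether these genes have a part in the rise of GADD45A and GADD45B was not tested.

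Of 9 known binding partners of the GADD45 proteins, CDKN1A alone rose with Nutlin (4.56 ± 0.16), and 3 fell, MAP3K4 (-1.37 ± 0.15) and CCNB1 (-1.15 ± 0.12) the most. With PD30, 6 of the 9 fell, and CDK1 (-6.07 ± 0.20) and CCNB1 (-4.68 ± 0.10) fell most. In N+PD30 against Nutlin, MAPK14 (0.56 ± 0.13), the p38 kinase, rose and 5 fell, again led by CDK1 (-6.95 ± 0.28) and CCNB1 (-4.17 ± 0.19). The shares of all genes called in these comparisons were 54.6%, 48.3% and 49.0%. CDK1 and CCNB1 are also in the list of proliferation markers.

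**Figure D5:**
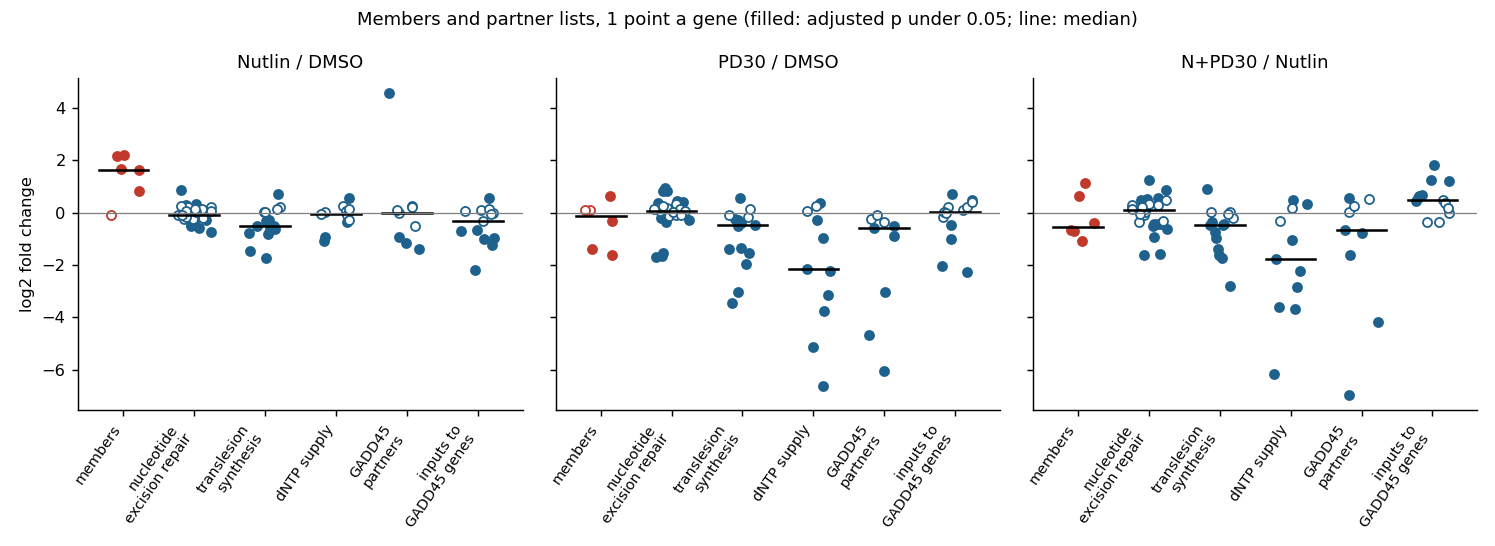
log2 fold change (y axis) of the 6 genes and of 5 partner lists (x axis) in 3 comparisons, 1 point for each gene tested. Filled points have an adjusted p under 0.05, and lines are medians. In Nutlin against DMSO the 6 genes have a median of 1.66, whereas the list medians lie between -0.50 and -0.02.

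Over the 18 libraries, the genes whose log2 CPM followed each gene most closely among 13558 genes were FAM212B, PPM1D and PTCHD4 for DDB2 (Pearson's r = 0.970, 0.966 and 0.958) and BAX, SESN1 and HSPA4L for XPC (0.985, 0.981 and 0.980). For POLH they were PRKX, FEZ1 and PARD6G (0.976, 0.972 and 0.957), and for RRM2B RPL23AP53, SCN2A and FAM210B (0.983, 0.981 and 0.980). GADD45A was followed by PLK3, GLTP and FUCA1 (0.903, 0.898 and 0.889). GADD45B was followed by SREBF1, AP2A2 and ABHD8 (0.959, 0.952 and 0.927). None of the 6 genes is among the 3 closest of another. The points share 6 treatments and their libraries, so these values are a description of the pattern over treatments.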

How the data were processed

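SJSA-1 RNA was sequenced as single reads. The labels and methods name TopHat with Bowtie 2 for alignment (hg19) and HTSeq 0.6.0 for counts per gene symbol. The authors deposited 4 tables of raw counts, although their names call the values variance-stabilized. The exception is N+PD24, deposited as a signal, which is counts divided by a size factor per library. Multiplied back, 100% of its values above 0 were whole reads at a tolerance of 0.001. Deposited tables of normalized base means, and the authors' own DESeq2 comparison (fold changes and p-values), were not used. Every value column used belonged to a labelled sample, 28 gene names had been turned into dates and were kept, and the DMSO and Nutlin libraries stand in 2 tables each with identical values and were counted once.

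Comparisons of 2 groups used edgeR 4.0.16 (R 4.3.3) with its quasi-likelihood test, TMM scaling and filterByExpr. Those with N+PD24 used limma 3.58.1 with an intensity trend on log2(TMM-scaled CPM + 0.1), for genes at 0.5 CPM or more in at least 3 libraries, so its fold changes are on this scale. The Benjamini-Hochberg adjustment ran over all genes tested, and genes at an adjusted p under 0.05 were called. The interaction terms used 12 libraries. Ratios were tested by exact permutation. The members, lists and comparisons were chosen with earlier results of these data known, and no list was tested as a set. Named are the 7 members, RRM1, RRM2, MDM2 and CDKN1A, and of each list at most 2 genes with the largest rise and 2 with the largest fall whose groups did not overlap, in 3 comparisons, and the 3 closest genes of each member. Some genes that this rule selects are not reported here. The alternatives were other scalings, filters, pseudocounts and tests (DESeq2 1.42.0), a replicate block, and leaving out each replicate. Same-numbered libraries deviated together (every r over 0.1) in 9 of 15 pairs of groups, among them N+PD24 with Nutlin, N+PD30 with PD30, N+PD24 with PD24, and PD30 with PD24, and there the blocked value stands beside a result that it changes. The labels do not say what a number shares. The scripts were tested on simulated data. Gene positions are from GENCODE v44 on GRCh37.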

Additional observations from a re-analysis of the deposited data

Results flagged for a closer look

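Of the results given here, 4 stand out because the response to Nutlin differed between cells without and with PD0332991, by an interaction term past an adjusted p of 0.05. With PD30 these were POLH (1.02 on the log2 scale, larger with PD0332991) and RRM2B (-0.77, smaller with PD0332991). With PD24 they were POLH (1.34) and DDB2 (0.78), both larger with PD0332991. For POLH and DDB2 the level without Nutlin was also lower with PD0332991, and this level enters the term. The POLH terms were called in every alternative run, whereas those of RRM2B and DDB2 were lost when certain libraries were left out. Groups of 3 libraries are too small for a test of single outlying samples.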

How the results depend on the processing

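Of the values of single genes under settings other than leaving out a library, 360 of 378 kept their direction and side of the threshold, and of those with a library left out 413 of 468 did. The cause of the changes was not tested. With the replicate number as a block, the 6 genes called in N+PD24 against Nutlin went from 3 to 5 and the calls over all genes to 8268, while the calls over all genes became 4375 in N+PD30 against PD30, 6107 in PD30 against PD24 and 326 in the interaction with PD24. Beyond the calls given in the report, the block changed only that of GADD45A in the interaction with PD30 (0.54, adjusted p = 0.0424). There, same-numbered libraries did not deviate together in all pairs of groups. On the recovered reads, edgeR called 5483, 5713 and 4959 genes in N+PD24 against Nutlin, N+PD24 against PD24 and N+PD30 against N+PD24, where limma called 5364, 5462 and 4759, and 116 instead of 151 in the interaction with PD24. That last count was 267 with a pseudocount of 1 CPM and 235 with 0.5 CPM. Scaling by total counts moved the median log2 fold change over all genes from -0.01 to 0.11 and the share of called genes that were lower from 50.8% to 37% in N+PD30 against N+PD24.

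Signs near 0 turned as follows. GADD45B in N+PD24 against Nutlin was -0.032 with scaling by total counts and -0.003 without a filter. POLH in PD30 against PD24 was 0.002 with the size factors of DESeq2, 0.030 with total counts, 0.004 without a filter and 0.005 with DESeq2. With TMM-scaled CPM, the mean level of DDB2 in DMSO was 32.56, of XPC in N+PD24 155.2, of POLH in PD30 17.76, of RRM2B in DMSO 68.55 and of GADD45B in PD30 83.23.

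Leaving out 1 library gave ranges of -0.260 to 0.185 for GADD45B in Nutlin against DMSO, -0.054 to 0.397 for GADD45B in PD30 against DMSO, -0.137 to 0.141 for GADD45B in N+PD24 against Nutlin, -0.057 to 0.028 for POLH in PD30 against PD24, -0.401 to 0.008 for RRM2B in N+PD30 against N+PD24 and -0.119 to 0.024 for XPC in the interaction with PD30. The number of the 6 genes called ranged from 2 to 5 in PD30 against DMSO, 1 to 3 in PD30 against PD24 and in N+PD30 against N+PD24, and 1 to 2 in both interactions. Calls over all genes ranged from 583 (without PD30 replicate 1) to 3384 (without N+PD30 replicate 3) in N+PD30 against PD30, 3106 to 4563 in N+PD24 against PD24, 2178 to 4117 in PD30 against PD24, 2665 to 4597 in N+PD30 against N+PD24 and 42 to 121 in the interaction with PD24. GADD45G had no more than 1 read in any library and was in no test, and 3 libraries a group limit the rest.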
